A study of Saccharomyces cerevisiae with 36 samples.

Results

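The wild-type of budding yeast, *Saccharomyces cerevisiae* strain FY4, was compared between 2 harvests of cultures given fructose as the only sugar: 10 hours after mid-log (+10h) and mid-log itself. Of the 36 RNA-seq libraries of the series, 6 belong to this comparison, being all those labelled as wild-type, fructose and either harvest, with 3 biological replicates (A, B and C) at +10h and 3 at mid-log. All genes in the table of counts were considered, 5697 in all, of which 5479 had enough counts to be tested. FY4 is a prototrophic laboratory strain, so it makes its own amino acids and nucleotides. Both groups were pre-grown in a rich synthetic medium with 2% sodium pyruvate, washed, and inoculated into a minimal medium with 0.1% fructose. Beside this change are set, where they differ, the same change in the *gal80Δ* strain (which lacks the repressor of the galactose genes) in fructose, the same change in the wild-type in fructose-palatinose (0.1% fructose and 0.9% palatinose, a disaccharide of glucose and fructose), and the following step in the wild-type in fructose, +16h against +10h. No label says whether the +10h and mid-log libraries of a letter came from the same flask, and the sugar left in the medium is not among the values used here.

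Fructose enters yeast through the hexose transporters, is phosphorylated by a hexokinase and joins glycolysis, and while hexose is plentiful most of it is fermented to ethanol. When hexoses run low, yeast can live on the ethanol and acetate made earlier. That way of life needs the glyoxylate cycle and gluconeogenesis to build sugars from small carbon compounds, and respiration for energy, and it comes with slower growth, fewer ribosomes, more storage carbohydrate and more stress protection. Regulators such as Cat8, Adr1, the Hap complex and the stress factors Msn2 and Msn4 are known for turning on these genes, and the kinase Snf1 for relieving their repression by sugar.

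The optical density (OD) at harvest was 1.55, 1.5 and 1.5 in the +10h cultures, against 0.3, 0.27 and 0.35 in the mid-log cultures. The groups did not overlap, with means of 1.52 ± 0.0289 at +10h and 0.307 ± 0.0404 at mid-log (SD, n = 3 each), a ratio of 4.95. A two-sided exact permutation test gave p = 0.1, the smallest that 3 cultures against 3 allow. The OD is proportional to cell number only at low values and was used here as deposited.

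The +10h libraries held 8460758, 9319489 and 10097597 counts, and the mid-log libraries 7210165, 8089332 and 9685712. Levels are given as CPM, a gene's count relative to its library's total, with the total scaled by edgeR's TMM factors, which were 1.06 to 1.19 at +10h and 0.839 to 0.875 at mid-log. Each library was made from the same amount of RNA, 400 ng, so a level is a share of the RNA. Less of a transcript in every cell, fewer cells that hold it, and more of other RNA cannot be told apart. Reads came from the 3′ ends of transcripts, so a count does not grow with transcript length. The strain labels fitted their deleted gene: *GAL80*, the repressor that *gal80Δ* lacks, lay between 7.23 and 16.2 CPM in the 18 *gal80Δ* libraries and between 46.4 and 97.9 CPM in the 18 wild-type ones. Where a gene had 3 counts or fewer in a library, its level there is not distinguishable from 0 at this depth. Of the 208 genes with values examined singly, 27 have a counted interval that overlaps a neighbour on the same strand and 76 one on the other strand. Among those below are *HXK1*, *HXK2*, *GLK1*, *TDH3*, *TRR1*, *TSL1*, *GCN4*, *ERG11* and *FIT2* on the same strand. The strand setting of the counting is not given in the sources used here, so reads of such pairs may be mixed.

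A library of the +10h group stood apart from the rest. In +10h replicate B, 114 genes, 2.08% of those tested and all with a median of at least 20 CPM in the group, were at less than 0.25 times their level in both +10h A and +10h C. Counted in the same way against the other replicates of its own group, fructose-palatinose mid-log C had 50 such genes, and no other library had more than 3. These 114 genes took 4.30%, 0.658% and 4.72% of the counts in +10h A, B and C, and 6.34%, 2.84% and 1.38% in mid-log A, B and C. They took 1.21% in fructose-palatinose mid-log C, and between 3.17% and 6.34% in the 32 libraries other than that one, +10h B and mid-log B and C. Among them were strongly expressed genes of glycolysis and fermentation (*TPI1*, *PGK1*, *CDC19*, *ADH1*), 14 ribosomal protein genes, 3 histone genes and the chaperone genes *HSP104* and *SSA1*. For *TPI1*, triose phosphate isomerase (named after its value was seen), the level was 2050, 75.5 and 2520 CPM at +10h and 6450, 1240 and 355 CPM at mid-log. For several lists the count is also given without +10h B, mid-log C and fructose-palatinose mid-log C, the 3 libraries in which the set was lowest. The source of the spread was not tested.

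**Figure D1:**
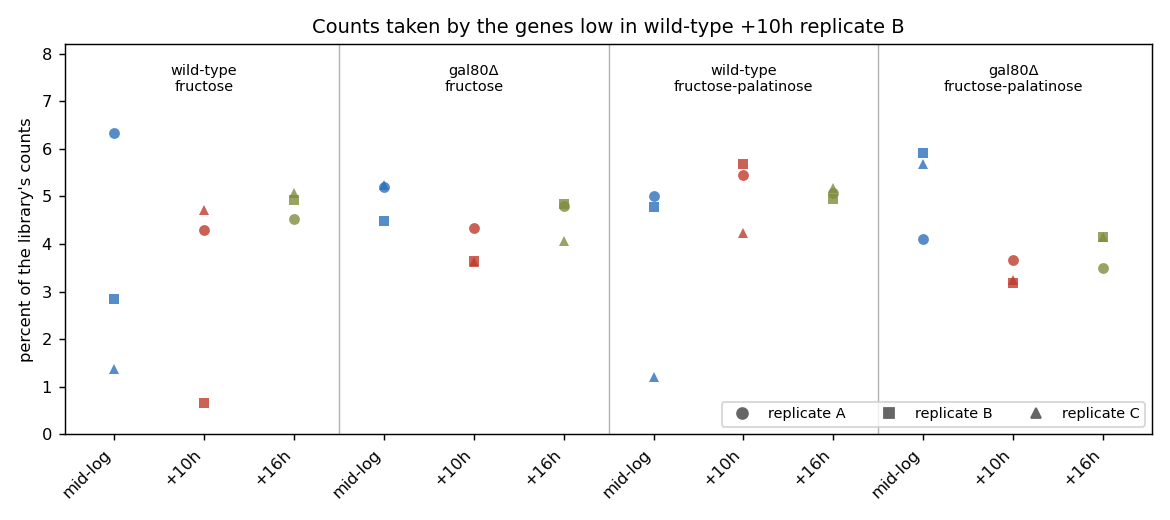
Percent of each library's counts taken by the 114 genes that were low in wild-type +10h replicate B, for all 36 libraries by strain, medium and harvest, with a point for each library and its shape for the replicate letter. Wild-type +10h B in fructose sits at 0.658% and wild-type mid-log C at 1.38% in fructose and 1.21% in fructose-palatinose, below the 3.17% to 6.34% of most libraries.

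Between the harvests, 1596 genes were higher at +10h (29.1% of the 5479 tested) and 1427 were lower (26%), so 55.2% of genes changed in either direction and 2456 did not pass. A gene was called when its log2 fold change lay beyond 0.5 in size and its adjusted p-value (edgeR's quasi-likelihood test, Benjamini-Hochberg adjustment over all genes tested) was below 0.05. Changes were lopsided in size. Of the genes called higher, 942 changed by over 1 on the log2 scale, 151 by over 3 and 47 by over 5, while the corresponding numbers of those called lower were 726, 14 and 1. The median log2 fold change was 1.16 over the higher genes, -1.01 over the lower genes and 0.02 over all genes, with a median standard error of 0.18. Without the 3 libraries, 1603 genes were higher (29.2%) and 1361 lower (24.8%). When libraries were scaled by their totals alone, the median over all genes moved to 0.38 and the counts to 2301 higher and 837 lower, so the balance between the directions depends on the scaling. Counts of a list with that scaling are given for some lists below, as those with library size alone. Other lists moved too. With that scaling 69 of 99 ribosome assembly genes and 10 of 22 genes of RNA polymerases I and III were lower. In the respiratory chain 33 of 39 were higher, and of 24 cyclins and regulators 10 were lower and 3 higher.

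The 10 genes with the largest increase, were taken among those with a mean of at least 10 CPM and groups that did not overlap. *YRO2*, a membrane protein of the same family as Hsp30 and counted over chrII:342781-344584 (R64, plus strand), was at 2340, 2200 and 1840 CPM at +10h, against 7.93, 3.68 and 3.89 CPM at mid-log, a log2 fold change of 8.71 (SE 0.41, adjusted p = 3.5e-17). *HSP26*, a small heat shock protein that binds unfolded proteins, was at 4810, 5770 and 2630 CPM at +10h and 17, 13.2 and 20.1 CPM at mid-log, a log2 fold change of 8.03. *SIP18*, a desiccation-protective hydrophilin, was at 7490, 5330 and 6800 CPM at +10h and 29.9, 26.2 and 27.3 CPM at mid-log, a log2 fold change of 7.88, and its fellow hydrophilin *GRE1* at 3270, 1620 and 2050 CPM against 13.1, 7.78 and 12 CPM. In all these genes every +10h library lay far above every mid-log library. The other 6 were *PCK1*, *MLS1* and *SFC1* (below), the regulator *SIP4*, the heat shock gene *HSP30* and *CDA2*, a chitin deacetylase of the spore wall. *HSP30* was at 211, 57.5 and 181 CPM at +10h and 1.49, 0.424 and 0.826 CPM at mid-log. Its counted interval overlaps that of *YCR022C* on the same strand. *CDA2* had 733 counts over the +10h libraries and 3 over those of mid-log, a ratio of 171 with an exact 95% interval of 58.2 to 830, and it is among the 114 genes.

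The 10 that changed most downwards included 2 hexose transporters (*HXT2* and *HXT7*, below), an enzyme of the pentose phosphate pathway, and genes of the cell surface. *INA1* (chrXII:951106-953354, plus strand) was at 1.99, 1.44 and 1.67 CPM at +10h, against 127, 116 and 56.9 CPM at mid-log, a log2 fold change of -5.87 (SE 0.32, adjusted p = 9.1e-16). *GND1*, the main 6-phosphogluconate dehydrogenase, was at 93.6, 26 and 89 CPM at +10h and 973, 800 and 460 CPM at mid-log, a log2 fold change of -3.42. *DSE2*, a glucanase-like protein that daughter cells secrete to separate from their mothers, was at 57.4, 36.5 and 52.7 CPM at +10h and 623, 467 and 395 CPM at mid-log. *BAR1*, the protease by which cells of mating type a degrade alpha factor, was at 10.7, 9.82 and 9.67 CPM at +10h and 116, 99.6 and 77.8 CPM at mid-log. The groups were disjoint in each. *SFG1*, a transcription factor of pseudohyphal growth, fell by 3.59 on the log2 scale, *GAS3* by 3.41 and *AIM20* by 3.30, and the remaining gene, *YGR035C*, by 3.83. The interval of *GAS3* overlaps that of *SCJ1* on the same strand.

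**Figure D2:**
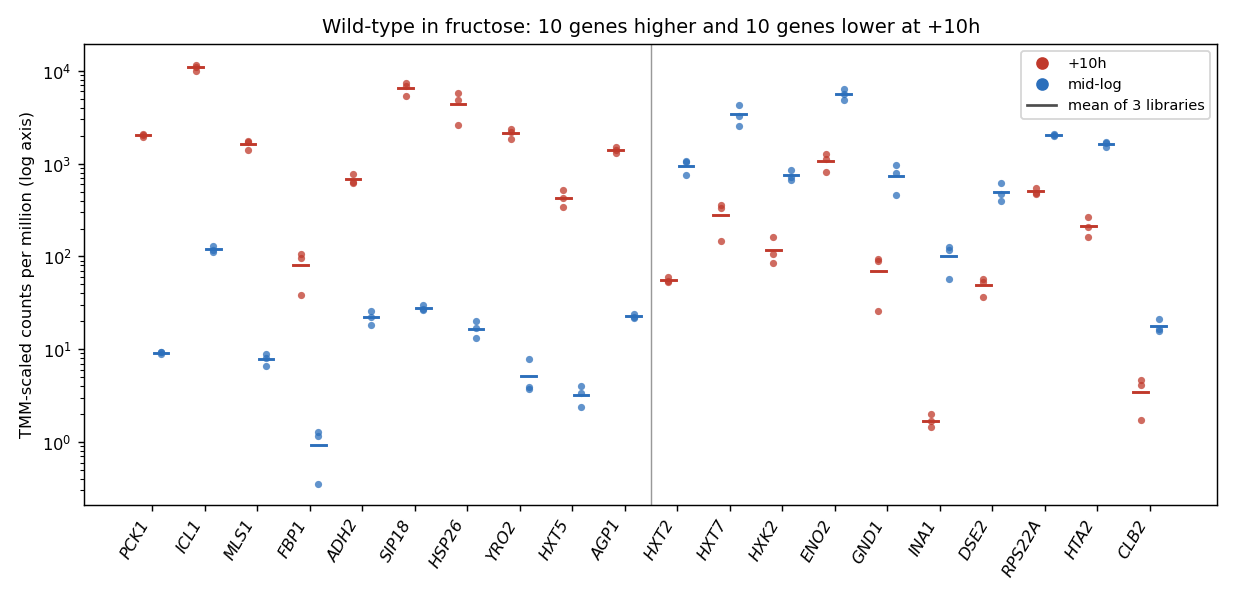
TMM-scaled CPM on a log axis of 10 genes higher at +10h (left of the line) and 10 lower (right), with +10h left of mid-log for each gene, a point for each of 3 libraries and a bar at their mean. No gene's groups overlap; *PCK1* averages 2030 CPM at +10h and 9.19 CPM at mid-log, and *HXT2* 55.6 CPM at +10h and 952 CPM at mid-log.

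Genes of gluconeogenesis and the glyoxylate cycle were the list with the highest median of the 36 examined. Of its 12 genes, 11 were higher at +10h and 1 lower, with a median log2 fold change of 5.29 against 0.02 over all genes. Together the 12 took 2.39%, 2.49% and 2.28% of the counts at +10h, against 0.0485%, 0.0415% and 0.0459% at mid-log. *PCK1*, phosphoenolpyruvate carboxykinase and the entry into gluconeogenesis (chrXI:631127-632926, plus strand), was at 2070, 2060 and 1960 CPM at +10h and 9.26, 9.34 and 8.97 CPM at mid-log, 221-fold higher (log2 fold change 7.79, SE 0.31, adjusted p = 9.2e-19). *ICL1*, isocitrate lyase, the first enzyme particular to the glyoxylate cycle (chrV:285114-287255, minus strand), was at 11100, 11600 and 9950 CPM at +10h and 118, 111 and 130 CPM at mid-log. *MLS1*, malate synthase, which follows it, was at 1760, 1720 and 1420 CPM at +10h and 6.61, 8.91 and 8.14 CPM at mid-log. Replicates of these enzymes lay close together at both harvests, and the groups were far apart. *SFC1*, the mitochondrial carrier that exchanges succinate for fumarate, was at 1160, 897 and 1110 CPM at +10h and 5.95, 5.52 and 4.48 CPM at mid-log. *FBP1*, fructose-1,6-bisphosphatase, which acts at the last step before hexose phosphate, was at 97, 38 and 107 CPM at +10h and 1.16, 1.27 and 0.354 CPM at mid-log, with an interval that overlaps *PSY3* on the same strand. The member that fell was *DAL7*, a malate synthase that serves the breakdown of allantoin, at 35, 48.2 and 40.7 CPM at +10h and 154, 142 and 97 CPM at mid-log. The coding sequences of *MLS1* and *DAL7* are 75.2% identical but the final 300 counted bases only 50.4%, so the opposite directions concern ends that differ.

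The promoters of *PCK1* and *ICL1* hold the letters of the carbon source response element (CSRE), the 12-letter consensus of Cat8 and Sip4. The planned window, used elsewhere, ran from 250 bases before to 50 after the start codon. In it none of the 12 genes of the list had a match on either strand, and 9 of 5371 genes tested did (0.168%). The window was widened to the 500 bases before the start codon after seeing the data. There 21 of 5371 had a match (0.391%), and 3 of the 12 did (25.0%), *PCK1* and *ICL1* among them. The 2 matches are shown with 15 bases on each side, on the strand of the gene, 5′ to 3′, with the CSRE in capitals, from RefSeq's R64 assembly at chrXI:630655-630696 (plus strand) and chrV:287287-287328 (minus strand).
PCK1 CSRE, first base 482 bases before the start codon: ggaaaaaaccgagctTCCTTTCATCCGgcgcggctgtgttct
ICL1 CSRE, first base 399 bases before the start codon: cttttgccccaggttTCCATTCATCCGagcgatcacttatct
A match describes letters and says nothing of which factor was bound.

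Of 11 enzymes and carriers for ethanol and acetate, 8 were higher and 1 lower, with a median log2 fold change of 3.26. *ADH2*, the alcohol dehydrogenase that oxidises ethanol, was at 619, 769 and 639 CPM at +10h, against 25.6, 22.2 and 18.1 CPM at mid-log, a log2 fold change of 4.95 (SE 0.30, adjusted p = 1.4e-14). *ACS1*, the acetyl-CoA synthetase of non-fermentative growth, was at 523, 205 and 419 CPM at +10h and 25.6, 17.7 and 17.2 CPM at mid-log. *ADY2*, an acetate transporter, was at 72.5, 37.7 and 60.1 CPM at +10h and 2.31, 1.98 and 2.01 CPM at mid-log. The groups were well separated in all 3. The mitochondrial aldehyde dehydrogenase gene *ALD4* was the member that fell, at 824, 518 and 603 CPM at +10h and 1490, 849 and 1030 CPM at mid-log (log2 fold change -0.79), a call that was lost without the 3 libraries (-0.71). Among 18 genes for pyruvate and lactate, 5 were higher and none lower, near the 29.1% of all genes, and 10 were higher with library size alone. *JEN1*, the permease for lactate and pyruvate, was nonetheless at 728, 799 and 600 CPM at +10h and 36.2, 32.8 and 51.7 CPM at mid-log. *MPC3*, the subunit of the mitochondrial pyruvate carrier made during respiration, was at 151, 93.2 and 200 CPM at +10h and 33.9, 15.7 and 37.9 CPM at mid-log. *DLD1*, D-lactate dehydrogenase, did not pass, at 277, 292 and 273 CPM at +10h and 236, 214 and 256 CPM at mid-log.

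In the TCA cycle 14 of 16 genes were higher and 1 lower, with a median log2 fold change of 1.39. The mitochondrial aconitase *ACO1* was at 2030, 1320 and 2480 CPM at +10h and 930, 697 and 740 CPM at mid-log, a log2 fold change of 1.30. *SDH1*, the flavoprotein of succinate dehydrogenase, was at 359, 246 and 335 CPM at +10h and 128, 97.8 and 101 CPM at mid-log. *CIT3*, a minor mitochondrial citrate and methylcitrate synthase, changed most, with a log2 fold change of 4.28, and *CIT1*, the main citrate synthase, rose by 2.04. In the respiratory chain and ATP synthase 24 of 39 were higher, none was lower and the median was 0.67. Without the 3 libraries, 31 of 39 were higher. *NDE2*, an external NADH dehydrogenase of mitochondria, was the exception in size, at 315, 346 and 188 CPM at +10h against 6.12, 1.70 and 4.96 CPM at mid-log. Some core subunits did not pass: *ATP1*, the alpha subunit of ATP synthase, was at 1480, 905 and 1710 CPM at +10h and 1470, 1290 and 1080 CPM at mid-log, and *CYC1*, cytochrome c, at 429, 432 and 514 CPM at +10h and 427, 414 and 597 CPM at mid-log. *COX5A*, the subunit used with oxygen, had a log2 fold change of 0.67 that did not pass and of 0.81 that did without the 3 libraries. CCAAT, the letters that the Hap complex binds, were found on either strand in 82.1% of the 39 promoters of this list, against 44.0% of all 5371, in the window from 250 bases before to 50 after the start codon. Over all genes the share did not follow the change. It was 44.3% for genes called higher, 38.8% for those higher by over 3 on the log2 scale and 43.5% for those called lower.

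Of 20 regulators of carbon source use, 14 were higher and none lower, with a median of 1.04. *SIP4*, a zinc cluster activator of gluconeogenic genes, was at 94.4, 69.2 and 74.6 CPM at +10h, against 0.165, 0.707 and 0.708 CPM at mid-log, and its log2 fold change of 7.13 exceeded that of every other member. *CAT8*, the activator above it, was at 160, 137 and 151 CPM at +10h and 49.8, 38.9 and 57.7 CPM at mid-log. *ADR1*, the activator of *ADH2* and of peroxisomal genes, was at 28.6, 23.5 and 25.6 CPM at +10h and 10.9, 5.94 and 6.49 CPM at mid-log. *HAP4*, the limiting subunit of the Hap complex, was at 662, 686 and 744 CPM at +10h and 237, 223 and 265 CPM at mid-log, with an interval that overlaps *SLD2* on the same strand. *XBP1*, a repressor of growth genes in starvation, was at 35.7, 12.4 and 24.6 CPM at +10h and 2.98, 1.84 and 3.54 CPM at mid-log.

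Peroxisomal and fatty acid genes were higher in 26 of 38 cases and lower in 1, with a median of 0.93. The genes for moving acetyl groups led the list. *CRC1*, the mitochondrial carnitine carrier, was at 1470, 938 and 1170 CPM at +10h and 12.6, 8.77 and 8.97 CPM at mid-log, a log2 fold change of 6.89 (SE 0.24, adjusted p = 2.3e-20). *YAT1*, a carnitine acetyltransferase, was at 2040, 2010 and 1490 CPM at +10h and 25.6, 25.6 and 29.7 CPM at mid-log. Carnitine carries acetyl groups between compartments. The enzymes of beta-oxidation itself changed less and from low levels: *POT1*, the thiolase, was at 116, 94.6 and 72.6 CPM at +10h and 3.64, 2.83 and 4.84 CPM at mid-log, and *POX1*, the oxidase of the first step, at 20.1, 26.7 and 18 CPM at +10h and 2.98, 2.4 and 4.96 CPM at mid-log. *FAA4*, a fatty acyl-CoA synthetase, was the member that fell, by 1.55 on the log2 scale.

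Hexose transporter genes moved in both directions. Of 17 genes listed, 12 had enough counts, of which 6 were higher and 2 lower, or 4 and 2 without the 3 libraries. *HXT2*, a transporter of high affinity (chrXIII:288049-289942, plus strand), was at 59.3, 53.2 and 54.1 CPM at +10h, against 1060, 1030 and 762 CPM at mid-log, a log2 fold change of -4.10 (SE 0.20, adjusted p = 7.4e-17). *HXT5*, a transporter known from slow growth and stationary phase, was at 517, 423 and 340 CPM at +10h and 3.97, 3.40 and 2.36 CPM at mid-log, 133-fold higher. *HXT3* and *HXT4*, of low and intermediate affinity, did not pass, with 33.4, 39.1 and 28.6 CPM at +10h against 31.1, 29.8 and 21.7 CPM at mid-log for *HXT3*. *HXT1*, the transporter of high sugar, was at most 3.51 CPM in any library. The high-affinity pair *HXT6* and *HXT7* gave opposite values that are uncertain. *HXT7* was at 334, 145 and 362 CPM at +10h and 4340, 3290 and 2540 CPM at mid-log, while *HXT6* was at 506, 232 and 465 CPM at +10h and 45.6, 26.3 and 53.5 CPM at mid-log. Their coding sequences are 99.8% identical and the final 300 counted bases 82.6%, so how reads were shared between them could move both.

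Hexose phosphorylation was lower for 3 of 4 genes and higher for none, or for 2 of 4 without +10h B, without the 3 libraries or with library size alone. The gene that lost its call was *EMI2*, related to the glucokinase, at 143, 92.7 and 118 CPM at +10h and 213, 134 and 240 CPM at mid-log, with overlapping groups (log2 fold change -0.73, or -0.62 without +10h B and -0.41 without the 3 libraries). It also lost the call without +10h C (-0.73), mid-log A (-0.66) or mid-log C (-0.55). *HXK2*, the main hexokinase of growth on sugar, was at 106, 84.9 and 161 CPM at +10h and 847, 724 and 667 CPM at mid-log, a log2 fold change of -2.67 (SE 0.21). *HXK1*, the other hexokinase that accepts fructose, was at 10.1, 15.8 and 4.74 CPM at +10h and 20, 26.5 and 40.4 CPM at mid-log. The glucokinase *GLK1*, which does not use fructose, did not pass, being at 270, 67 and 195 CPM at +10h and 227, 28.3 and 24.5 CPM at mid-log, so that mid-log A lay among the +10h libraries. Of 20 genes that sense sugar or repress by it, 10 were higher and 5 lower, with a median of 0.56, or 12 and 1 with library size alone. *NRG1*, a repressor, was at 13.5, 18.6 and 13.6 CPM at +10h and 2.15, 0.849 and 2.24 CPM at mid-log. *RGT1*, the repressor of *HXT* genes, was higher (log2 fold change 0.87), whereas *MTH1* and *STD1*, its partners in repression, were lower (-0.57 and -1.05). The call of *MTH1* was lost with library size alone, and that of *STD1* was kept. *MIG1*, the glucose repressor, was at 3.54, 3.15 and 1.95 CPM at +10h and 4.13, 0.849 and 2.12 CPM at mid-log, and did not pass.

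Glycolysis had 5 of 16 genes higher and 8 lower, with a median of -0.68. The counts were 4 and 8 without the 3 libraries, and 5 and 3 (median -0.33) with library size alone. *ENO2*, the enolase of growth on sugar, was at 1110, 809 and 1280 CPM at +10h and 6350, 5590 and 4830 CPM at mid-log, a log2 fold change of -2.39, with an interval that overlaps *CTR2* on the same strand. Its isoenzyme *ENO1*, named here after its value was seen, was at 1450, 1040 and 1120 CPM at +10h and 393, 312 and 296 CPM at mid-log, a log2 fold change of 1.85. The coding sequences of the 2 enolases are 94.9% identical, but the last 300 bases counted only 48.8%. *TDH1*, the glyceraldehyde-3-phosphate dehydrogenase of slow growth, was at 282, 326 and 236 CPM at +10h and 38.3, 34.4 and 50.4 CPM at mid-log, while its abundant isoenzyme *TDH3* was at 10700, 11000 and 8700 CPM at +10h and 14900, 13800 and 15200 CPM at mid-log. The pyruvate kinase *CDC19* was called lower with a log2 fold change of -1.73, but its libraries spread widely, at 697, 155 and 896 CPM at +10h and 4630, 840 and 325 CPM at mid-log, and without mid-log A the value was 0.00. *PGK1*, phosphoglycerate kinase, had the same spread, with 553, 28.7 and 664 CPM at +10h and 2060, 288 and 95.5 CPM at mid-log, and did not pass. Both are among the 114 genes.

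Fermentation genes were higher in 4 of 11 cases and lower in 4, or 4 and 5 without the 3 libraries and 5 and 1 with library size alone. *PDC1*, the main pyruvate decarboxylase, was at 3720, 4150 and 3300 CPM at +10h and 7420, 7610 and 6660 CPM at mid-log, a log2 fold change of -0.96 (SE 0.13, adjusted p = 1.3e-07). *PDC6*, a minor isoenzyme, was at 58.5, 51.4 and 47.7 CPM at +10h and 1.32, 0.849 and 1.30 CPM at mid-log. *ADH1*, the alcohol dehydrogenase that makes ethanol, was at 1790, 295 and 2000 CPM at +10h and 4080, 2830 and 1200 CPM at mid-log, with overlapping groups, a log2 fold change of -0.99 and an adjusted p of 0.0406 by edgeR's test. It is among the 114 genes, and its call was lost without +10h B (-0.55), without mid-log A (-0.57) or mid-log B (-0.96), with library size alone (-0.66), with upper quartile scaling, with the culture as a block and when only the groups compared were fitted.

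In the list of quiescence and stationary phase, 31 of 34 were higher and none lower, with a median of 3.43, and the list took 4.12%, 3.79% and 3.29% of counts at +10h, against 0.206%, 0.160% and 0.231% at mid-log. *SPG4*, needed for survival in stationary phase, was at 920, 659 and 716 CPM at +10h and 13.1, 10.2 and 13.1 CPM at mid-log. *DDR2*, a multistress protein, was at 5150, 3300 and 3360 CPM at +10h and 339, 161 and 232 CPM at mid-log. *SNO1*, of vitamin B6 synthesis in stationary phase, had 457 counts over the +10h libraries and 1 over those of mid-log, a ratio of 319 with an exact 95% interval of 57.0 to 12600, covering counting error only. Among 29 heat shock chaperones, 19 were higher and 3 lower, with a median of 1.33, or 19 and 4 without the 3 libraries. *HSP12*, a membrane-stabilising stress protein, was at 21400, 15600 and 16000 CPM at +10h and 3970, 2980 and 3180 CPM at mid-log. *HSP104*, the disaggregase, was at 573, 66.2 and 478 CPM at +10h and 76.9, 26.7 and 21.9 CPM at mid-log, and its call held without the 3 libraries (log2 fold change 3.35, against 3.16 with them). The member that fell most was *SSB1*, a chaperone of ribosomes, at 639, 445 and 754 CPM at +10h and 2540, 2300 and 1950 CPM at mid-log. Its copy *SSB2* is 97.5% identical in coding sequence and 67.9% over the last 300 bases counted.

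For trehalose and glycogen 19 of 22 genes were higher and 1 lower, with a median of 1.39. *TPS1*, trehalose-6-phosphate synthase, was at 276, 158 and 180 CPM at +10h and 97.2, 71.3 and 105 CPM at mid-log, and *TSL1*, a subunit of the same complex, at 104, 37.9 and 59.8 CPM at +10h and 13.4, 4.24 and 4.25 CPM at mid-log. *GSY2*, glycogen synthase, rose by 1.04 on the log2 scale, *GPH1*, glycogen phosphorylase, did not pass (0.46), and *PGM1*, a minor phosphoglucomutase, fell by 2.13. Of 32 oxidative stress genes, 13 were higher and 7 lower, or 14 and 7 without the 3 libraries. *CTT1*, the cytosolic catalase, was at 649, 555 and 361 CPM at +10h and 16.7, 9.34 and 10.6 CPM at mid-log, a log2 fold change of 5.42, whereas *TRR1*, cytosolic thioredoxin reductase, was at 238, 268 and 221 CPM at +10h and 728, 706 and 817 CPM at mid-log. Autophagy genes, which serve the recycling of cell contents, were higher in 33 of 39 cases and lower in none, with a median of 1.10. *ATG8*, the protein that coats the autophagosome membrane, was at 409, 333 and 333 CPM at +10h and 40.7, 43.1 and 44.4 CPM at mid-log, and *ATG1*, the kinase that starts the process, at 218, 159 and 164 CPM at +10h and 14.4, 13.6 and 14 CPM at mid-log.

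The stress response element, STRE, has the letters AGGGG and is bound by Msn2 and Msn4. Searched on both strands from 250 bases before to 50 after the start codon, it was present in 31.8% of the promoters of genes called higher and in 46.3% of those higher by over 3 on the log2 scale, against 15.1% of those called lower and 21.9% of all. It was present in 47.1% of the 34 promoters of the quiescence list. *CTT1*, a standard reporter of this element, has 3 matches within 500 bases of its start codon, and *DDR2* has 4, of which those nearest the start codon are shown with 15 bases on each side on the gene's strand, 5′ to 3′, with the STRE (or its reverse complement) in capitals, from R64 at chrVII:654486-654520 (plus strand), chrVII:654256-654290 (plus strand) and chrXV:231911-231945 (minus strand).
CTT1 STRE, first base 133 bases before the start codon: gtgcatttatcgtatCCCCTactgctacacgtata
CTT1 STRE, first base 363 bases before the start codon: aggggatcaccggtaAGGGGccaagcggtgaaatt
DDR2 STRE, first base 175 bases before the start codon: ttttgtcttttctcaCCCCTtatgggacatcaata
The 5 letters are short, and 34.4% of all promoters have them within 500 bases.

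**Figure D3:**
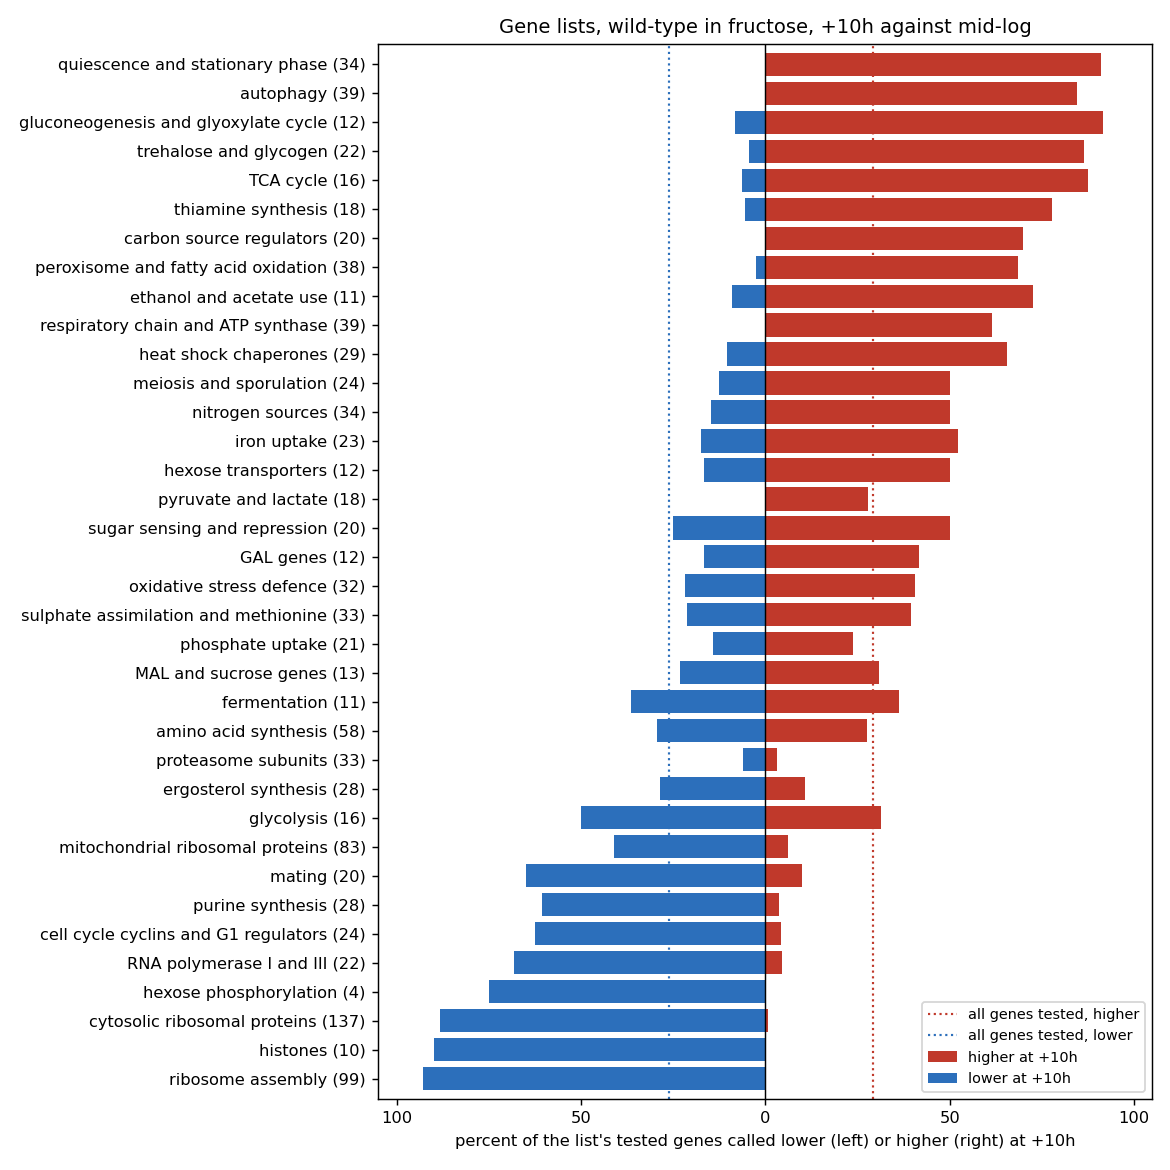
Percent of each list's tested genes (number in brackets) called higher (right) or lower (left) at +10h than at mid-log, with dotted lines at the 29.1% and 26% of all genes tested. Lists of respiration, reserve carbohydrate, starvation and autophagy lie at the top and those of ribosomes, histones and hexose phosphorylation at the bottom.

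Of 137 cytosolic ribosomal protein genes tested, 121 were lower and 1 higher, with a median log2 fold change of -1.24, against 0.02 over all genes. Of the 123 outside the set of 114 genes, 117 were lower. Without the 3 libraries, 128 of 137 were lower and 1 higher. The whole list took 15.3%, 14.3% and 17.3% of the counts at +10h, against 29.3%, 29.7% and 30.0% at mid-log. *RPS22A*, the member that fell most, was at 478, 475 and 553 CPM at +10h and 2000, 2040 and 2110 CPM at mid-log, a log2 fold change of -2.03 (SE 0.17, adjusted p = 1.6e-11). *RPL3*, of the large subunit, was at 1520, 1030 and 1470 CPM at +10h and 4600, 3680 and 3790 CPM at mid-log. The 1 that was higher, *RPL15B*, is a weakly expressed copy, at 144, 202 and 168 CPM at +10h and 90.4, 129 and 122 CPM at mid-log. Its log2 fold change of 0.59 lost its call without +10h B (0.42), where 117 genes were lower and none higher, and without mid-log A (0.45). The paralogous pairs of ribosomal protein genes are close in sequence, and how reads were shared between copies could move single members.

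Ribosome assembly factors were lower in 92 of 99 cases and higher in none, with a median of -1.08. *NOP56*, a core protein of box C/D particles that modify rRNA, was at 272, 264 and 301 CPM at +10h and 555, 767 and 544 CPM at mid-log. *UTP4*, of the small subunit processome, was at 65.6, 74.6 and 78.2 CPM at +10h and 162, 214 and 190 CPM at mid-log. *DBP2*, an RNA helicase, fell most, by 2.07 on the log2 scale. Subunits and regulators of RNA polymerases I and III, which transcribe rRNA and tRNA, were lower in 15 of 22 cases. *RPA190*, the largest subunit of polymerase I, was at 85, 79.2 and 108 CPM at +10h and 283, 266 and 219 CPM at mid-log. The only member higher was *MAF1*, the repressor of polymerase III, at 36.4, 30.8 and 38.9 CPM at +10h and 21, 21.2 and 20.7 CPM at mid-log. Of 83 mitochondrial ribosomal proteins 34 were lower and 5 higher, with a median of -0.41. These counts were 19 and 5 without the 3 libraries, and 6 and 11 (median -0.05) with library size alone, so their balance depends on the scaling.

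Promoters of assembly genes share a pair of elements: PAC, with the letters CGATGAG, and RRPE, with AAAAATTT. In the window from 250 bases before to 50 after the start codon, on both strands, PAC was found in 67.7% of the 99 assembly genes and in 40.9% of the polymerase list, against 7.39% of all promoters and 0.73% of ribosomal protein genes. RRPE was found in 76.8% and 68.2% of the same lists, against 15.1% of all promoters. In the promoter of *NSR1*, nucleolin, which was at 683, 260 and 663 CPM at +10h and 1980, 1400 and 1010 CPM at mid-log, the 2 elements lie side by side. They are shown with 15 bases on each side on the gene's strand, 5′ to 3′, with the element (for PAC, its reverse complement) in capitals, from R64 at chrVII:807839-807876 and chrVII:807822-807858 (minus strand), beside the RRPE of *UTP4* at chrIV:1116775-1116812 (minus strand).
NSR1 RRPE, first base 205 bases before the start codon: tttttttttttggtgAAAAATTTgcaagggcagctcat
NSR1 PAC, first base 187 bases before the start codon: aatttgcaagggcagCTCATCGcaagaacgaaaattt
UTP4 RRPE, first base 34 bases before the start codon: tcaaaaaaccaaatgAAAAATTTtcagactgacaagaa
The shown stretches of *NSR1* overlap.

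**Figure D4:**
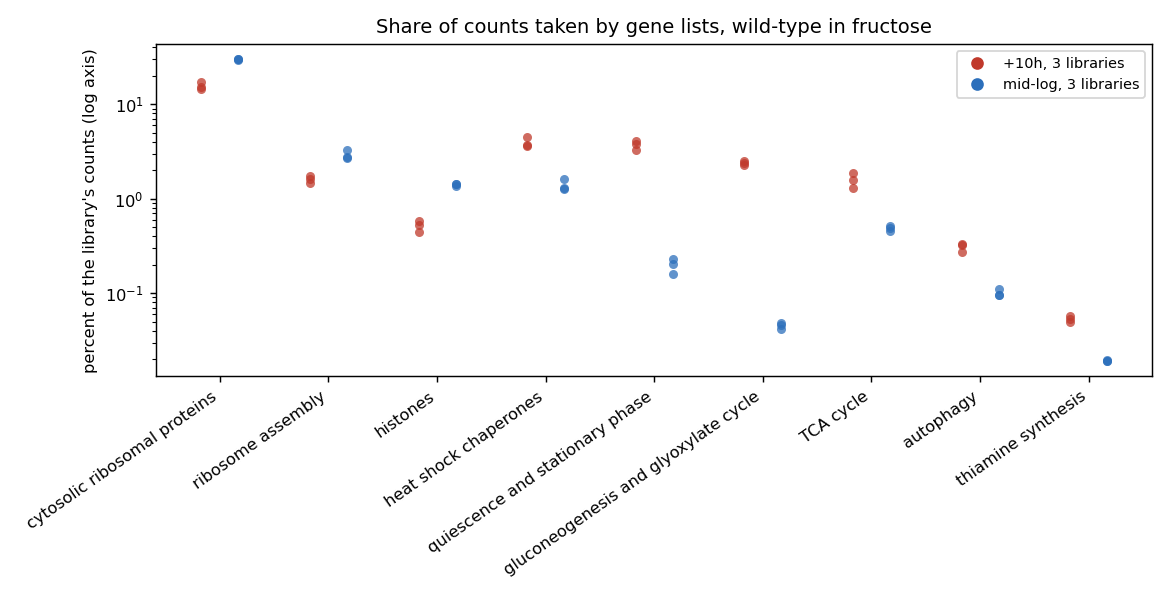
Percent of each library's counts (log axis) taken by 9 lists, with the 3 +10h libraries left of the 3 mid-log libraries. Ribosomal proteins take 14.3% to 17.3% at +10h and 29.3% to 30.0% at mid-log, and the gluconeogenesis list 2.28% to 2.49% at +10h and 0.0415% to 0.0485% at mid-log.

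Histone genes were lower in 9 of 10 cases, all 10 without the 3 libraries, with a median of -1.61 (-1.45 without the 3 libraries). *HTA2*, a histone H2A gene, was at 210, 164 and 265 CPM at +10h and 1500, 1710 and 1650 CPM at mid-log, a log2 fold change of -2.92 (SE 0.15, adjusted p = 2.1e-16). Of 24 cyclins and regulators, 15 were lower and 1 higher, with a median of -0.72. The higher one, the G1 transcription factor *MBP1*, had a log2 fold change of 0.70 and lost its call without the 3 libraries (0.76). *CLB2*, the main mitotic cyclin, was at 4.09, 1.71 and 4.65 CPM at +10h and 21, 16.6 and 15.7 CPM at mid-log. The G1 cyclin *CLN2* was at 32.3, 28.6 and 39.9 CPM at +10h and 81.5, 85.3 and 72.7 CPM at mid-log, while *CLN3*, the upstream G1 cyclin, did not pass, at 77.7, 47.5 and 72.8 CPM at +10h and 64.5, 48.4 and 34.3 CPM at mid-log. Purine synthesis was lower in 17 of 28 genes and higher in 1, the activator *PHO2* (log2 fold change 0.59, not called at 0.54 without the 3 libraries), and lower in 10 with library size alone. *IMD2*, an IMP dehydrogenase of guanine nucleotide synthesis, was at 28, 26 and 19.7 CPM at +10h and 249, 243 and 144 CPM at mid-log. *SHM2*, the cytosolic serine hydroxymethyltransferase that supplies one-carbon units, was at 771, 982 and 1040 CPM at +10h and 2270, 2590 and 2610 CPM at mid-log.

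Mating genes were lower in 13 of 20 cases and higher in 2, with a median of -1.34. The genes particular to mating type a were expressed and fell: *STE2*, the receptor for alpha factor, was at 83.1, 85.5 and 81.9 CPM at +10h and 429, 414 and 336 CPM at mid-log, and *MFA1*, which encodes a-factor, at 237, 81.1 and 189 CPM at +10h and 1470, 1290 and 668 CPM at mid-log. *MF(ALPHA)1*, the alpha factor gene, was low at both harvests, at 5.42, 8.46 and 2.60 CPM at +10h and 0.331, 0.849 and 0.354 CPM at mid-log, although it was called higher. Of 24 meiosis and sporulation genes tested, 12 were higher and 3 lower, most at low levels. *IME1*, the inducer of meiosis, was at 9.28, 1.71 and 9.02 CPM at +10h and 0.331, 0.424 and 0 CPM at mid-log, and *SPS100*, a spore wall protein, at 45.3, 31.4 and 19.8 CPM at +10h and 0.661, 1.13 and 0.590 CPM at mid-log.

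Of 34 genes for nitrogen sources, 17 were higher and 5 lower, with a median of 0.53, or 21 and 2 with library size alone. *AGP1*, a broad-range permease (chrIII:75941-78023, minus strand), was at 1310, 1510 and 1400 CPM at +10h, against 22.1, 21.6 and 24 CPM at mid-log, 62.1-fold higher (log2 fold change 5.96, SE 0.19, adjusted p = 4.7e-21). *BAP2*, a branched-chain amino acid permease, was at 111, 141 and 86.9 CPM at +10h and 3.47, 2.55 and 2.71 CPM at mid-log. *DIP5*, of acidic amino acids, was at 135, 106 and 119 CPM at +10h and 32.6, 29 and 16.2 CPM at mid-log. *BAP2* and *DIP5* were named after their values were seen. In contrast *GNP1*, the glutamine permease, was at 41, 42 and 32 CPM at +10h and 145, 126 and 129 CPM at mid-log, and the general permease *GAP1*, at 633, 379 and 850 CPM at +10h and 947, 685 and 316 CPM at mid-log, did not pass. *MEP2*, the high-affinity ammonium permease, was at 436, 316 and 612 CPM at +10h and 1320, 1180 and 746 CPM at mid-log.

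Amino acid synthesis was divided, with 16 of 58 genes higher and 17 lower, close to the shares of all genes, or 25 and 10 with library size alone. Here too isoenzymes went apart: *GDH3*, a glutamate dehydrogenase of ethanol growth, was at 1130, 1480 and 1040 CPM at +10h and 121, 115 and 132 CPM at mid-log, while *GDH1*, its counterpart in sugar, was at 676, 713 and 1200 CPM at +10h and 3040, 3130 and 2820 CPM at mid-log. *GCN4*, the activator of the pathway, did not pass, at 2350, 2110 and 2480 CPM at +10h and 2100, 1990 and 1760 CPM at mid-log. In sulphate assimilation and methionine, 13 of 33 were higher and 7 lower. *SAM2*, S-adenosylmethionine synthetase, was at 154, 133 and 129 CPM at +10h and 747, 752 and 773 CPM at mid-log, and *MET6*, methionine synthase, fell by 1.41 on the log2 scale, while *STR3*, cystathionine beta-lyase on the way from cysteine to homocysteine, was at 76.5, 45.9 and 54.4 CPM at +10h and 6.12, 8.63 and 6.73 CPM at mid-log.

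Thiamine synthesis was higher in 14 of 18 genes and lower in 1, with a median of 1.58. *THI4*, which makes the thiazole part of thiamine, was at 64.8, 61.3 and 50.3 CPM at +10h and 7.60, 6.08 and 7.43 CPM at mid-log. Members *THI5*, *THI11*, *THI12* and *THI13* are near-identical copies (*THI5* and *THI13* 98.1% in coding sequence and 97.7% over the last 300 bases counted), so they do not count as separate observations. Iron uptake was mixed, with 12 of 23 higher and 4 lower. *FET3*, the multicopper oxidase of high-affinity uptake, was at 120, 165 and 132 CPM at +10h and 435, 489 and 314 CPM at mid-log, whereas *FIT2*, a cell wall mannoprotein that retains siderophores, was at 135, 201 and 117 CPM at +10h and 54.5, 67.2 and 57.4 CPM at mid-log. In phosphate uptake 5 of 21 were higher and 3 lower (2 and 3 without the 3 libraries), in ergosterol synthesis 3 of 28 higher and 8 lower (1 and 7), and in the proteasome 1 of 33 higher and 2 lower. With library size alone these counts were 8 and 1, 4 and 5, and 4 and 0. *RPN4*, the activator of proteasome genes and not a subunit, was the proteasome list's higher member, at 143, 56.5 and 172 CPM at +10h and 56.9, 37.8 and 33 CPM at mid-log. *ERG11*, lanosterol demethylase, was at 529, 478 and 529 CPM at +10h and 579, 531 and 469 CPM at mid-log, and did not pass.

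The galactose enzymes did not pass. *GAL1*, galactokinase, was at 32.4, 25.4 and 30.1 CPM at +10h and 27.3, 22.1 and 27.6 CPM at mid-log (log2 fold change 0.19, SE 0.36), and *GAL10* and *GAL7* had log2 fold changes of 0.11 and 0.34. Of the 12 genes in the list, 5 were higher and 2 lower, and those that moved include *GCY1*, a glycerol dehydrogenase that Gal4 also binds, at 206, 223 and 152 CPM at +10h and 37.5, 37.8 and 51.1 CPM at mid-log. Of 13 *MAL* and sucrose genes tested, 4 were higher and 3 lower, or 7 and 3 with library size alone. *MAL11*, the palatinose transporter, was at 15.9, 11.1 and 11.3 CPM at +10h and 8.59, 5.23 and 11.2 CPM at mid-log, and *IMA1*, an isomaltase, at 6.41, 7.65 and 6.42 CPM at +10h and 7.44, 8.35 and 9.68 CPM at mid-log. *SUC2*, invertase, was lower, at 27.2, 17.4 and 27.6 CPM at +10h and 83.5, 50.1 and 56.5 CPM at mid-log.

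Between +16h and +10h, 609 genes passed (11.1% of those tested), 313 higher and 296 lower at +16h, or 401 without the 3 libraries and 366 without +10h B alone. This step shares the +10h libraries with the change described above, so the values are set side by side and nothing is drawn from their resemblance. *AGP1* averaged 22.6 CPM at mid-log, 1410 CPM at +10h and 206 CPM at +16h, with a log2 fold change of -2.77 in the later step (SE 0.16, adjusted p = 3.3e-13). *ADH2* averaged 22, 676 and 1830 CPM at the 3 harvests, with a later log2 fold change of 1.44, and *PDC6* 1.16, 52.5 and 176 CPM, with 1.74. For *PCK1* the averages were 9.19, 2030 and 1330 CPM, and its later log2 fold change of -0.61 did not pass (adjusted p = 0.0649). Several genes that were lower at +10h than at mid-log were higher at +16h than at +10h: *HXT2* averaged 952, 55.6 and 296 CPM, *ENO2* 5590, 1070 and 2640 CPM, *HTA2* 1620, 213 and 464 CPM and *CLN2* 79.8, 33.6 and 73.9 CPM, and all 4 passed upwards in the later step. In the later step 8 of the 11 genes for ethanol and acetate were higher and none lower, 5 of 10 histones and 9 of 24 cyclins and regulators were higher and none lower, and 17 of 58 genes of amino acid synthesis were lower and 4 higher. These list counts include +10h B, and 3 of the 10 histone genes are among the 114 low in that library. Of the 137 cytosolic ribosomal proteins 2 were lower and none higher.

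**Figure D5:**
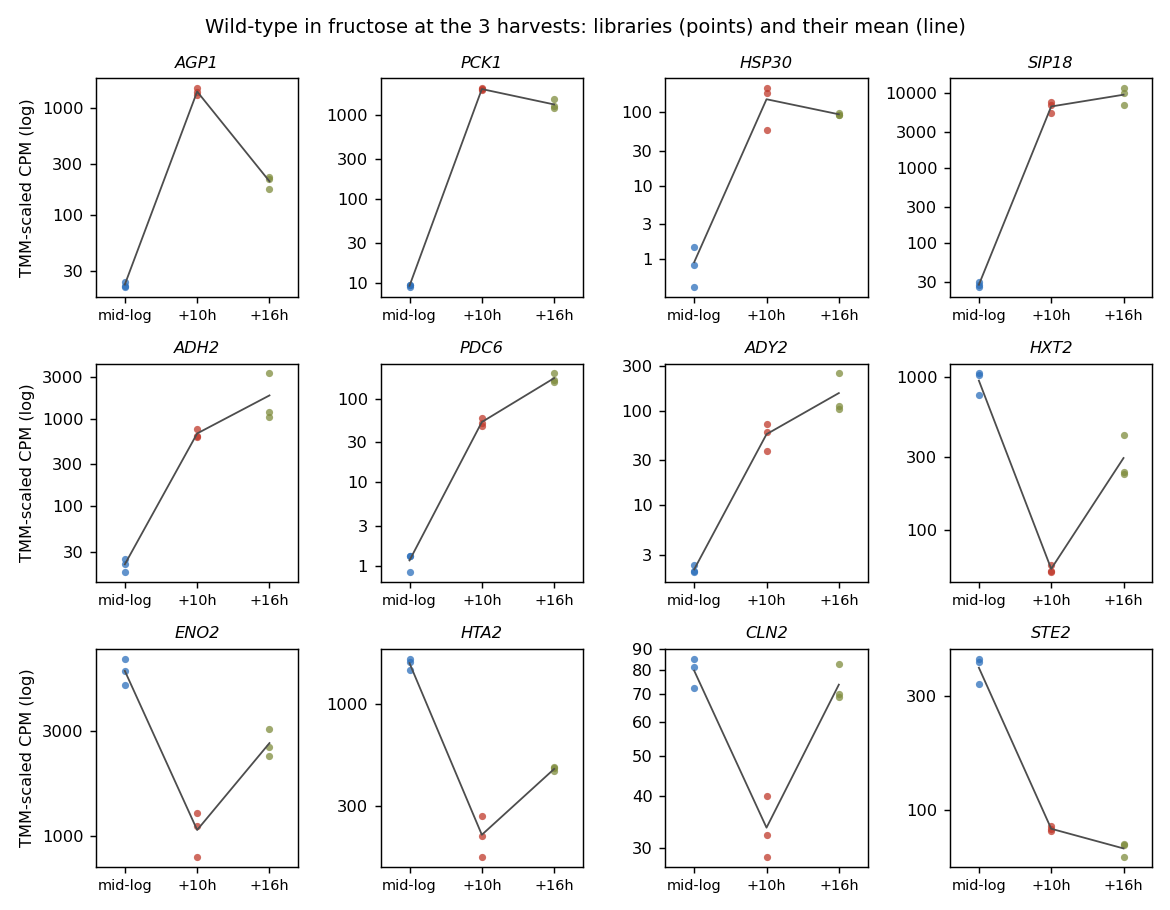
TMM-scaled CPM on log axes of 12 genes of wild-type cells grown on fructose, from mid-log through +10h to +16h, with a point for each of 3 libraries and a line through the means. *AGP1* averages 22.6, 1410 and 206 CPM, *ADH2* 22, 676 and 1830 CPM and *HXT2* 952, 55.6 and 296 CPM.

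The change was compared with that of the *gal80Δ* strain in the same medium through the difference of the 2 changes. Only 34 of the 5479 genes tested had a difference that passed (0.621%), 22 of them with a more positive change in the wild-type and 12 with a more negative one, and in 27 of the 34 both strains changed in the same direction. At an unadjusted p-value below 0.05, 523 genes differed. The count was sensitive to the fit: 69 genes passed with DESeq2 and 2 when only the 4 groups compared were fitted, neither of them among the genes and lists named here. *HSP26* averaged 4400 ± 1610 CPM at +10h and 16.7 ± 3.46 CPM at mid-log in the wild-type, against 1410 CPM and 23.9 CPM in *gal80Δ* (SD, n = 3), a difference of 2.15 on the log2 scale (SE 0.37, adjusted p = 0.00151). *TDH1* changed by 2.77 in wild-type cells and 0.94 in *gal80Δ* cells, and *PDC1* by -0.96 in wild-type cells and -1.88 in *gal80Δ* cells. Of the 29 heat shock chaperones, 5 were among the 34 genes, and of the 16 glycolysis genes 3 were.

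Against the same strain with palatinose also present, 170 genes had a change that differed (3.1% of 5479), 74 more positive and 96 more negative in fructose alone, and in 143 of them both media gave the same direction. At an unadjusted p-value below 0.05, 904 genes differed. Without the 3 libraries the count was 106, and with a single library left out it lay between 91 (without fructose-palatinose +10h C) and 319 (without +10h C). It was 111 without +10h B, 109, 113 and 274 without mid-log A, B and C, and 105 without fructose-palatinose +10h B. Most of the genes examined singly that differed had values of the same sign in both media, larger in fructose alone. Many of these genes were picked for a large change in wild-type cells in fructose. Such a choice favours larger values in fructose alone in advance, so nothing is drawn from it about the media. *PCK1* changed by 7.79 in fructose and by 6.49 in fructose-palatinose, *ICL1* by 6.51 and 5.68, and *SIP4* by 7.13 and 4.85. *SIP4* had very few counts at mid-log in fructose. Its difference was not called when at least 10 counts were required in every library or with the culture as a block. It was also lost without mid-log A, fructose-palatinose +10h C, or fructose-palatinose mid-log A or B. Of the 12 genes of gluconeogenesis and the glyoxylate cycle 6 were among the 170, of which 5 had the more positive change in fructose alone and *DAL7* the more negative one (-1.06). Without +10h B 2 of the 6 kept the call, *SFC1* and *DAL7*, while *PCK1* (1.28) and *ICL1* (0.78) lost it. Leaving out each of the other libraries in turn, between 0 (without fructose-palatinose mid-log B) and 6 kept it, and none did when only the groups compared were fitted. *INA1* changed by -5.87 in fructose and -3.26 in fructose-palatinose, and *DSE2* by -3.34 and -0.92. The isomaltase *IMA1* had a log2 fold change of -0.32 in fructose, which did not pass, and of 3.21 in fructose-palatinose. *MEP2* had one of -1.25 in fructose and of 0.44 in fructose-palatinose, which did not pass, and the difference of -1.69 did (SE 0.28, adjusted p = 0.00045). Of the 34 nitrogen genes 12 were among the 170, in both directions. Named in full, those with the more positive change in fructose alone were *BAP3*, *DIP5*, *AGP1*, *GNP1*, *TAT1* and *PUT4*. Those with the more negative change were *DAL1*, *DAL2*, *DAL3*, *DAL4*, *DUR12* and *MEP2*. *BAP3*, a branched-chain amino acid permease named after its value was seen, averaged 28.8 CPM at +10h and 3.44 CPM at mid-log in fructose, against 6.11 CPM and 4.33 CPM in fructose-palatinose.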

How the data were processed

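QuantSeq REV libraries, which read the 3′ ends of transcripts, were made from 400 ng of total RNA of each culture, with no spike-in. The authors deposited raw counts per gene and library. Reads had been trimmed with cutadapt 1.18, aligned to R64 with HISAT2 2.1.0 and counted with featureCounts of Subread 2.0.0 over an annotation that they adapted, in which 3′ ends were extended and the *MAL* genes edited. Reads shared by near copies or overlapping genes can be lost or misplaced at this step. The OD at harvest was deposited as measured, an unnormalised optical signal. A column of deposited CPM (1 in all) was not used.

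All 36 libraries were fitted together with edgeR 4.0.16 (R 4.3.3), 12 groups of 3, with TMM factors and genes filtered by filterByExpr, and the fit was tested on simulated data. DESeq2 1.42.0 was an alternative. Of 5697 genes, 5551 matched RefSeq's R64 annotation, and promoters were read from that genome for 5371 tested genes. Totals of 6020770 to 11785148 counts per library limit precision mainly for genes of a few counts, and count intervals cover counting error only. Each p-value weighs a change against the spread between replicate cultures. That spread was estimated over all 12 groups together, so groups outside a comparison contribute to it.

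Genes named singly were the 10 with the largest increase and the 10 with the largest decrease (mean of at least 10 CPM, groups not overlapping), preset key genes, and the called extremes of each list. The members, lists and keys were chosen with earlier results of these data known. Other names are said to be chosen after their values were seen. Some genes that the rule names are not reported here.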

Additional observations from a re-analysis of the deposited data

Results flagged for a closer look

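Among the genes examined singly, 46 differences between the change in wild-type cells in fructose (+10h against mid-log) and the same change in another strain or medium passed edgeR's test, and each is given as the wild-type change in fructose minus the other, on the log2 scale. None was weighed for a cause.

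Against the *gal80Δ* strain, all 5 genes that differed had the more positive change in the wild-type. Over all genes tested, 22 differences were more positive in the wild-type and 12 more negative. Many of the genes examined singly were picked by their wild-type values in fructose, so the 5 do not stand for all genes. The difference was 2.15 for the small heat shock gene *HSP26*, 1.83 for *TDH1*, 1.55 for *ENO1*, 1.09 for *FIT2* and 0.92 for *PDC1*. Each passed when any 1 library was left out, and none when only the groups compared were fitted.

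Against fructose-palatinose, 16 genes had the more positive change in fructose. The difference was 2.28 for *SIP4*, 1.70 for *CRC1*, 1.54 for *NDE2*, 1.38 for *SFC1*, 1.35 for *YAT1*, 1.30 for *PCK1*, 1.25 for *MLS1* and 0.83 for *ICL1*. For permeases it was 2.56 for *BAP3*, 2.06 for *DIP5*, 2.05 for *MUP1*, 1.90 for *AGP1*, 1.61 for *GNP1* (which fell further in fructose-palatinose) and 1.48 for *TAT1*. It was 1.18 for *FIT2* and 0.96 for the peroxidase gene *GPX1*.

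The change was more negative in fructose for 25 genes. The widest such difference, -3.53, was that of *IMA1*, and *MAL11*, a transporter of alpha-glucosides, differed by -1.52. Both were higher at +10h in fructose-palatinose. The difference was -2.61 for *INA1*, -2.42 for *DSE2*, -1.53 for *SUN4*, -1.36 for *SCW11*, -1.33 for *GAS3*, -1.28 for *DSE1*, -0.99 for *AMN1*, -0.92 for *DSE3* and -0.70 for *ASH1*. It was -1.79 for *GND1*, -1.69 for *MEP2*, -1.54 for *IMD2*, -1.06 for *DAL7*, -1.02 for *HXK2*, -1.0 for *ENO2*, -0.94 for *GDH1* and -0.84 for *SAM2*. It was -1.67 for *AIM20*, -1.60 for *BAR1*, -1.43 for *SFG1*, -1.21 for *REE1*, -1.20 for the histone gene *HTA2* and -1.01 for *STE2*.

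Of these 41 differences between media, 20 passed when only the groups compared were fitted, and 19 when tested against the minimum fold change itself. When a single library was left out, between 27 (without fructose-palatinose +10h C) and 40 (without mid-log C) passed. Without the 3 libraries low in a set of genes, 30 passed. The 11 lost in that setting were *SFG1*, *AIM20*, *HXK2*, *ICL1*, *GPX1*, *GDH1*, *MAL11*, *ENO2*, *NDE2*, *REE1* and *DSE1*. Without +10h B 33 passed, and *NDE2*, *PCK1*, *MLS1*, *ICL1*, *GPX1*, *HXK2*, *ENO2* and *GDH1* did not. *SIP4* passed there, but not without mid-log A, fructose-palatinose +10h C, or fructose-palatinose mid-log A or B.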

How the results depend on the processing

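The main limits are the 3 libraries low in a set of genes, scaling without a spike-in, and the small number of cultures for the differences between strains and media. Alternatives that left out those libraries or genes, widened the promoter window or set stricter thresholds for single genes and lists were chosen after seeing the data. Correlations of same-lettered deviations from the group means were 0.656, 0.0793 and -0.591 for A, B and C. They cannot settle whether the letters pair the libraries. Each mean is of 3 libraries, and +10h B and mid-log C are low in a shared set of genes. With the letter as a replicate block 1595 genes were higher and 1419 lower at +10h than at mid-log, and with the culture as the block 1571 and 1415. For the OD ratio the replicate block gave 5.0, and leaving out single cultures 4.67 to 5.32.

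Counts of genes higher at +10h ranged from 1508 to 1582 and of genes lower from 1389 to 1468 when single libraries were left out. For the difference between strains the range was 25 to 50, for that between media 91 to 319 and for +16h against +10h 366 to 890. Leaving out the 3 libraries gave 106 for the media and 401 for the later step. With a minimum log2 fold change of 1 the counts were 942 higher, 726 lower, 22 for the strains, 93 for the media and 160 for the later step. Testing against the minimum itself (glmTreat) gave 12, 36 and 127 for the last 3. Fitting only the groups compared gave 2, 53 and 166. DESeq2 gave 69 for the strains, and 1529 genes higher and 1528 lower at +10h. With library size alone 837 genes were lower.

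Scaling by library size alone turned the list medians of amino acid synthesis (0.18), ergosterol synthesis (0.081) and the proteasome (0.174) positive. With DESeq2 those of sulphate and methionine (-0.044), *MAL* and sucrose genes (-0.05) and all genes (-0.031) were negative.

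Of 174 called genes examined singly, 144 kept direction and call under each of the 18 alternatives in which they were tested. Some, such as *HSP30* and *FBP1*, were tested under only 17. The call was lost under at least 1 (stricter thresholds included) for 30 genes, and 1 of these, *CDC19*, changed sign (0.003 without mid-log A). Of the 34 uncalled genes examined singly, 13 were called under at least 1 alternative. With library size alone these included *HXT3*, *DLD1*, *GPH1*, *CLN3*, *GCN4* and *COX5A*, and without mid-log A *GLK1*, *CLN3* and *COX5A*. Apart from *CDC19*, the sign changes were of uncalled genes. With library size alone the log2 fold changes were 0.292 for *CYC1*, 0.115 for *MET17*, 0.284 for *GAP1*, 0.321 for *ERG11*, 0.004 for *PRE2*, 0.265 for *GAL2* and 0.046 for *IMA1*. Upper quartile scaling gave 0.004 for *CYC1* and 0.027 for *ERG11*. DESeq2 gave -0.024 for *HXT4* and -0.045 for *MET3*, which was at -0.002 with no filter, -0.004 with only the groups compared and -0.11 with the culture block, where *GAP1* was at 0.041. Without the 3 libraries the values were -0.008 for *HXT4*, 0.165 for *CYC1*, -0.059 for *HMG1*, -0.445 for *PHO5*, 0.133 for *GAL2* and -0.025 for *ZWF1*. Leaving out single libraries gave -0.168 to 0.244 for *HXT4*, -0.09 to 0.908 for *MIG1*, -2.229 to 0.003 for *CDC19*, -0.16 to 0.124 for *CYC1*, -0.106 to 0.276 for *ATP1*, -0.33 to 0.484 for *MET3*, -0.395 to 0.31 for *GAP1*, -0.101 to 0.134 for *HMG1*, -0.117 to 0.035 for *ERG11*, -0.818 to 0.007 for *PHO84*, -0.473 to 0.604 for *PHO5*, -0.237 to 0.113 for *GAL2*, -0.033 to 0.666 for *GAL7*, -0.079 to 0.363 for *GAL10*, -1.337 to 0.959 for *TPI1*, -1.499 to 1.116 for *PGK1* and -0.108 to 0.243 for *ZWF1*. The cause of these changes was not tested.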

Other observations

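Genes outside the lists, chosen after their values were seen, showed isoenzymes of the pentose phosphate pathway with opposite signs. *GND2*, the minor 6-phosphogluconate dehydrogenase, was at 319, 348 and 133 CPM at +10h, against 6.12, 3.82 and 7.20 CPM at mid-log (log2 fold change 5.53), where *GND1* had fallen by 3.42. *TKL2*, the minor transketolase, was at 763, 720 and 341 CPM at +10h and 6.45, 5.94 and 6.61 CPM at mid-log (6.58), while the main one, *TKL1*, was at 187, 79.2 and 206 CPM at +10h and 542, 382 and 205 CPM at mid-log (-1.26). The same held for the transaldolase pair, with 4.81 for *NQM1* and -1.70 for *TAL1*, and for the 6-phosphogluconolactonases, with 3.49 for *SOL4* and -2.18 for *SOL3*. *ZWF1*, the glucose-6-phosphate dehydrogenase that feeds the pathway, did not pass, at 261, 282 and 176 CPM at +10h and 242, 203 and 243 CPM at mid-log. *RKI1*, ribose-5-phosphate isomerase, did not pass either (-0.43), and *RPE1*, the epimerase, fell by 0.67. The last 300 bases counted are 52.3% identical between *GND1* and *GND2*.

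Genes for the wall between mother and daughter, also chosen after their values were seen, were lower beside *DSE2*. *SUN4*, of septum formation, was at 41.9, 29 and 41.8 CPM at +10h and 359, 309 and 231 CPM at mid-log. *SCW11*, a glucanase-like wall protein, was at 59.8, 64.4 and 46.5 CPM at +10h and 301, 294 and 248 CPM at mid-log. The log2 fold changes were -2.02 for *DSE1*, -1.28 for *DSE3*, -0.64 for *DSE4*, -1.90 for the chitinase *CTS1* and -2.06 for *EGT2*, which is among the 114 genes. The interval of *CTS1* overlaps those of neighbours on the same strand.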
